A study of Mus musculus with 4 samples.

Results

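Prostaglandins are lipid signals made where they act, and the dorsal root ganglia, where the cell bodies of sensory neurons lie beside the spinal cord, hold both cells that make them and neurons that respond to them. The genes described here are 10 of that pathway, chosen by name and with earlier results of these data known. The enzymes are the prostaglandin D synthases Ptgds and Hpgds, the cyclooxygenases Ptgs1 and Ptgs2, the prostaglandin E synthase Ptges, and the prostacyclin synthase Ptgis. The receptors are Ptger1, Ptger3, Ptger4 and Ptgir. Of the 10 genes, 9 had at least 1 probe set under their own symbol in the platform annotation. These were 16 probe sets in all, out of 45101 on the array. Ptgs1 had no such probe set and is not analysed here. On the whole array 18194 genes had a probe set with a single symbol.

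Total RNA from freshly dissected mouse ganglia was hybridised to 4 Affymetrix mouse arrays. By their labels, 2 arrays hold RNA of one ganglion level (called sample-1) and 2 that of another (called sample-2), with neither level named. The labels give no treatment or genotype that separates them, and no strain, age or sex. Whether the arrays within a level came from different animals is not stated, so every p-value reflects the spread among these arrays alone, and that spread may be technical. The fit estimated the spread of each probe set in part from other probe sets of like intensity. The question was how transcript levels differed between the 2 ganglion levels.

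In this pathway, cyclooxygenases turn arachidonic acid, released from membranes, into an unstable intermediate, and a terminal synthase then sets which prostaglandin is made. Ptgds is a secreted protein of the lipocalin family that also carries small lipophilic molecules, and is abundant in the meninges. Hpgds is an unrelated enzyme of mast cells and macrophages that makes the same product. The prostaglandin E and prostacyclin receptors on nociceptors, the neurons that sense damaging stimuli, act through G proteins, and some of them lower the threshold for firing.

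Ptgds fell between the sample-1 and the sample-2 level, and it was the only one of the 7 members tested that passed the threshold. Both of its probe sets passed, against 0.622% of all tested probe sets. On its brighter probe set the intensity fell from 4990 ± 618 (SD, n = 2) to 2203 ± 58.4 (SD, n = 2), which is 2.27-fold. The other synthases and all 4 receptors gave differences that did not pass. The Ptgds call was lost when dim probe sets were kept in, and when the spread was fitted without an intensity trend.

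Ptgds is the gene the comparison turns on, and the 250 bases before its annotated start are shown beside those of Ptger4 and Ptgir, the receptors with the narrowest intervals. They come from the RefSeq promoter table (GRCm38.p6), which held 8 of the 10 genes. They are printed 5′ to 3′ on the strand of the gene, with matches in capitals to 5 of the 6 motifs searched, the exception being the E-box.
Ptgds (chr2:25469750-25469999, minus strand): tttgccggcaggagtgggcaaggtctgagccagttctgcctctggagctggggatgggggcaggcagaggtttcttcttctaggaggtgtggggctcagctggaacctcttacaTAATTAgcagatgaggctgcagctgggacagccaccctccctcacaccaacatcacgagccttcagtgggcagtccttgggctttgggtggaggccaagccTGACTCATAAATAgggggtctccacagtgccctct
Ptger4 (chr15:5244188-5244437, minus strand): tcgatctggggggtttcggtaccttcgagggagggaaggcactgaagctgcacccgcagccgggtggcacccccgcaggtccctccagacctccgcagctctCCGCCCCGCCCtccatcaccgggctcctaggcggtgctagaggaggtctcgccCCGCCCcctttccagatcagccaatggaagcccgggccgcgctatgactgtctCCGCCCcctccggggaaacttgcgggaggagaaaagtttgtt
Ptgir (chr7:16906240-16906489, plus strand): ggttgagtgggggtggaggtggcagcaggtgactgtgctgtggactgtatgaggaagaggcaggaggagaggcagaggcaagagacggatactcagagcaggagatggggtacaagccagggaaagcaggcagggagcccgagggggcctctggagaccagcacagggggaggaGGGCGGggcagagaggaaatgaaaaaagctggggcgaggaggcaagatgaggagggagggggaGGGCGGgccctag

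Motifs were chosen after these sequences had been read, were searched on both strands, and are given as letter matches, not as sites. The Ptgds stretch held TGACTCA, the AP-1 sequence, starting 35 bases before the start, in 4.46% of all 32851 such stretches. ATAAATA began 29 bases before the start, shared 1 base with it, and was found in 5.17% of all stretches. TAATTA, a core that homeodomain proteins bind, began 136 bases before the start and was found in 4.84%. TATAAA, the TATA box, had no match in the Ptgds stretch and was found in 12.4% of all. GGGCGG, the GC box, had no match there either, while Ptger4 had 4 and Ptgir had 2, with 32.7% of all stretches holding at least 1. The E-box, CANNTG, matched 3 times in the Ptgds stretch, once in that of Ptgir and not in that of Ptger4, against 66.2% of all. The G and C content was 58.4% for Ptgds, 66.8% for Ptger4 and 63.6% for Ptgir.

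Values are intensities per probe set as the authors deposited them, and tests used limma on log2(intensity + 16) over 27022 probe sets that were not among the dimmest 40% and not controls. The threshold was 0.05 on the p adjusted by Benjamini-Hochberg. Median intensities of the arrays lay between 25.9 and 27.3, and arrays of a level correlated at r = 0.987 across tested probe sets, against 0.982 to 0.986 between levels. Markers of sensory neurons checked the tissue: Uchl1, a ubiquitin hydrolase of neurons, measured 6731 to 7264, and Snap25, a protein of synaptic release, 6098 to 6641. Their list of 8 had 0 past with limma, and 0 at an unadjusted p under 0.05. Sample-1 array 2 stood apart in skeletal muscle genes, whose 9 listed markers summed to 6744 there and to 1071 to 1607 on the other 3 arrays.

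Ptgds had 2 probe sets, and both fell. Probe set 1423859_a_at measured 5427 on sample-1 array 1 and 4553 on array 2, then 2161 on sample-2 array 1 and 2244 on array 2. Probe set 1423860_at measured, in the same order, 2392, 1863, 833.5 and 800.1. On both, each sample-1 array lay above each sample-2 array, and sample-1 array 1 was the highest of the 4. Even the lower sample-1 array was 2.03-fold above the higher sample-2 array on the first probe set and 2.23-fold on the second. The spread was wider at the sample-1 level, where the SD was 12.4% and 17.6% of the mean on the first and second probe set, than at the sample-2 level, where it was 2.65% and 2.90%.

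The fitted log2 difference, sample-2 minus sample-1 level, was -1.17 ± 0.08 (SE) for 1423859_a_at, with a 95% interval from -1.35 to -0.99 and an adjusted p of 9.37e-05 with limma. For 1423860_at it was -1.35 ± 0.11, with an interval from -1.59 to -1.12 and an adjusted p of 0.000179 with limma. By p, these were the third and the fifth of the 27022 probe sets tested. Over all tested probe sets 0.622% passed, 0.4% of them lower and 0.222% higher as shares of those tested, and the median difference was 0.005. Sample-1 array 2, which carried the muscle signal, had the lower Ptgds values of its level, and without it the difference of the first probe set was -1.29 (limma adjusted p = 5.46e-05). The call was lost with limma when no probe set was filtered out (adjusted p = 0.0760 and 0.0768) and when the spread was fitted without an intensity trend (adjusted p = 0.305 for both), while the difference stayed at -1.17 and -1.35. Without the trend the SEs were 0.13 and 0.16. The call therefore depends on the filter and on spread taken from probe sets of like intensity.

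**Figure D1:**
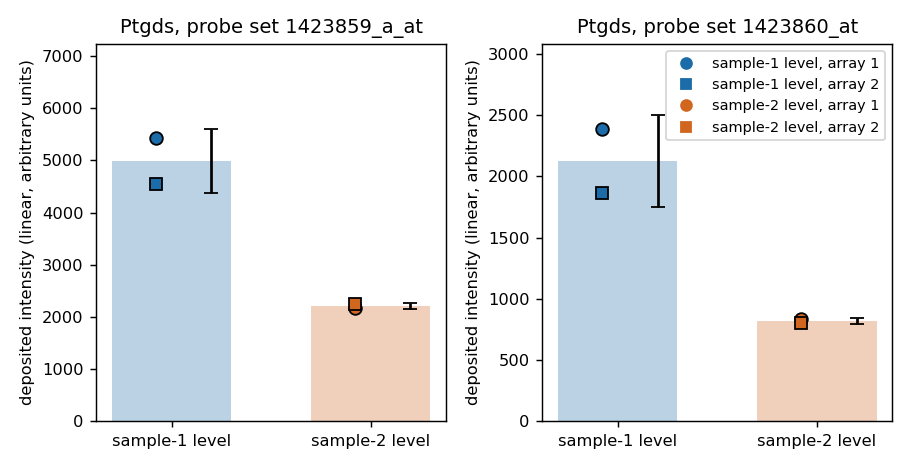
Deposited intensity of Ptgds on the linear scale, with 1 panel per probe set; points are arrays, bars are means of 2 arrays and error bars are 1 SD. In both panels the sample-1 arrays (5427 and 4553, then 2392 and 1863) stand clear of the sample-2 arrays (2161 and 2244, then 833.5 and 800.1).

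Hpgds, the other prostaglandin D synthase, was dim. Its single probe set measured 13.7 and 17.8 at the sample-1 level, then 9.03 and 13.2 at the sample-2 level. The levels did not overlap, but the mean lay under the filter level of 14.3 and the probe set was not tested. In the fit without the filter its difference was -0.23 ± 0.24 (limma adjusted p = 0.848). Mast cell markers moved little in sum, at 463 and 434.6 for sample-1 against 458.8 and 433.8 for sample-2. Most of that sum was Kit, a growth factor receptor that neurons also express, at 253.4 to 372.9. Cpa3, a mast cell protease, measured 45.3 and 48.8 at the sample-1 level and 26.0 and 32.2 at the sample-2 level. Of 6 mast cell genes tested 0 passed with limma, 3 had an unadjusted p under 0.05, and 5 lay below 0. Of 9 macrophage genes 0 passed, 4 had an unadjusted p under 0.05, and they summed to 1052 and 1132 against 892.8 and 866.6. Of all tested probe sets 10.9% had an unadjusted p under 0.05, and 51.2% of all genes lay below 0. The part of either cell type in the Hpgds values was not tested.

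Ptgs2, the cyclooxygenase that inflammation and activity induce, had 2 probe sets, both near the bottom of the range. Probe set 1417263_at measured 6.17 and 7.13 at the sample-1 level and 0.924 and 7.19 at the sample-2 level. Probe set 1417262_at measured 0.654 and 5.21, then 6.74 and 0.856. The levels overlapped on both, both lay under the filter level, and without the filter the differences were -0.19 ± 0.21 and 0.06 ± 0.21 (limma adjusted p = 0.854 and 0.968).

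Ptges, the inducible prostaglandin E synthase, had 3 tested probe sets and 0 past, and they did not move alike. Probe set 1449450_at measured 46.9 and 42.3 at the sample-1 level and 40.9 and 46.9 at the sample-2 level, so the levels overlapped. Probe set 1439747_at measured 35.1 and 52.6, then 21.3 and 34.2, and there the levels did not overlap, although the lower sample-1 array and the higher sample-2 array nearly met. The third, 1449449_at, measured 12.7 and 25.0, then 12.2 and 19.02, with overlap. Their log2 differences were -0.02, -0.45 and -0.12, with 95% intervals from -0.44 to 0.40, from -0.98 to 0.07 and from -0.75 to 0.50. The -1.17 of Ptgds lies outside all 3 intervals in this fit, whose pseudocount makes differences of dim probe sets smaller. With a pseudocount of 1 they were -0.02 ± 0.25 (SE), -0.65 ± 0.34 and -0.21 ± 0.53, while Ptgds stayed at -1.17. With SEs of that size, a fall like that of Ptgds is not excluded for 1439747_at or 1449449_at. The signs of 1449450_at and 1449449_at turned when certain arrays were left out, with ranges from -0.09 to 0.05 and from -0.38 to 0.13.

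Ptgis, the prostacyclin synthase of vessel walls and fibroblasts, measured 44.5 and 55.7 at the sample-1 level and 46.8 and 20.8 at the sample-2 level. Sample-2 array 2 alone was low, and the other sample-2 array lay between the sample-1 arrays. The difference was -0.45 ± 0.26, with an interval from -1.01 to 0.10 (limma adjusted p = 0.566), and it was -0.07 without sample-2 array 2. The summed intensity of 7 endothelial genes was also lowest on that array, at 412.3, against 519 on the other sample-2 array and 584.5 and 547.4 at the sample-1 level. Kdr and Tek, both receptors of endothelial growth factors, were not lowest there. A lowest sum on that array was not particular to endothelium. It was also found for listed meninges and fibroblast genes (7673) and Schwann cell genes (13480), while listed neutrophil genes had their highest sum there (8192). Of the 7 endothelial genes 0 passed with limma and 1 had an unadjusted p under 0.05, against 10.9% of all tested probe sets. Their part in the Ptgis values was not tested.

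**Figure D2:**
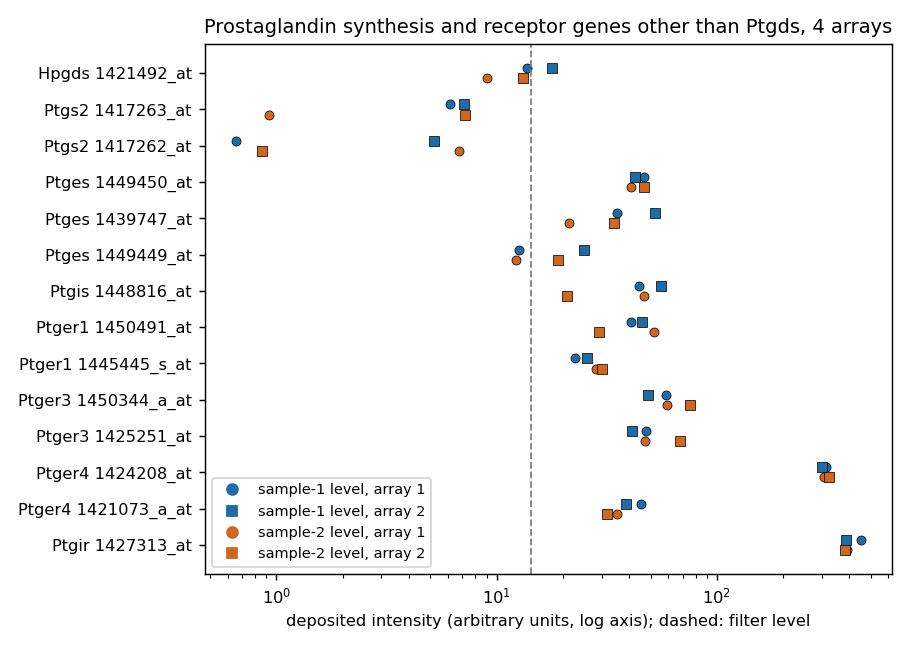
Deposited intensity (log axis) of the 14 probe sets of members other than Ptgds on the 4 arrays, with circles for array 1 and squares for array 2 of each level. Levels lie close together or overlap on most rows, and Hpgds and both Ptgs2 probe sets have means under the filter level of 14.3, drawn as a dashed line.

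The receptors gave 7 tested probe sets, of which 0 passed with limma and 0 had an unadjusted p under 0.05. Their differences ran from -0.22 to 0.27 with a median of 0.04.

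Ptger4, a prostaglandin E receptor coupled to cyclic AMP, was the steadiest. Probe set 1424208_at measured 312.4 and 298.6 at the sample-1 level and 305.5 and 323.3 at the sample-2 level, so all 4 arrays lay within a narrow band and the levels overlapped. Its difference was 0.04 ± 0.11, with an interval from -0.19 to 0.27 (limma adjusted p = 0.937). The dimmer probe set 1421073_a_at measured 45.1 and 38.5, then 35.3 and 31.8, without overlap, and differed by -0.22 ± 0.20 (limma adjusted p = 0.760). The pair of probe sets therefore differed in sign, and neither passed.

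Ptgir, the prostacyclin receptor, measured 452.1 and 386.2 at the sample-1 level and 389.3 and 383.1 at the sample-2 level. Sample-1 array 1 was high and the other 3 arrays lay together. Its difference was -0.11 ± 0.11, with an interval from -0.35 to 0.13 (limma adjusted p = 0.782).

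Ptger3, a prostaglandin E receptor that mostly lowers cyclic AMP, gave differences above 0 on both of its probe sets, neither past the threshold. Probe set 1450344_a_at measured 58.6 and 48.5 at the sample-1 level and 59.4 and 75.5 at the sample-2 level, and the levels did not overlap, by a small margin. Probe set 1425251_at measured 47.5 and 41.2, then 47.4 and 67.8, with overlap, and on both sample-2 array 2 was highest. The differences were 0.26 ± 0.18 and 0.27 ± 0.20 (limma adjusted p = 0.669 and 0.682), with intervals from -0.14 to 0.66 and from -0.16 to 0.71. Without sample-2 array 2 they were 0.12 and 0.07, and without sample-1 array 2 they were 0.15 and 0.20.

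Ptger1, a prostaglandin E receptor that raises intracellular calcium, was read by a pair of probe sets of opposite sign. Probe set 1450491_at measured 40.7 and 45.8 at the sample-1 level and 51.8 and 29.1 at the sample-2 level, so the sample-2 arrays enclosed the sample-1 arrays. Its difference of -0.10 ± 0.23 turned to 0.20 without sample-2 array 2. Probe set 1445445_s_at, whose suffix marks probes that can match more than 1 transcript, measured 22.8 and 25.9, then 28.1 and 30.1, and differed by 0.16 ± 0.22 (limma adjusted p = 0.854).

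Across the 13 tested probe sets, 9 lay below 0 and 4 above, where 48.9% of all tested probe sets lay below 0. Levels did not overlap on 6 of the 13, with 4 lower and 2 higher, against 41.2% of all tested probe sets, 20.1% lower and 21.1% higher, so the share without overlap was near the background. Without Ptgds the median was -0.10 over 11 probe sets, the lowest adjusted p was 0.534 (limma), and 0 had an unadjusted p under 0.05, against 10.9% of all tested probe sets. On each array, log2 Ptgds (1423859_a_at) minus log2 Ptger4 (1424208_at), both as log2(intensity + 16), was 4.05 and 3.86 at the sample-1 level and 2.76 and 2.74 at the sample-2 level. The same quantity against Ptgir was 3.54 and 3.51, then 2.43 and 2.50. Relative to both receptors, Ptgds was lower on both sample-2 arrays.

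**Figure D3:**
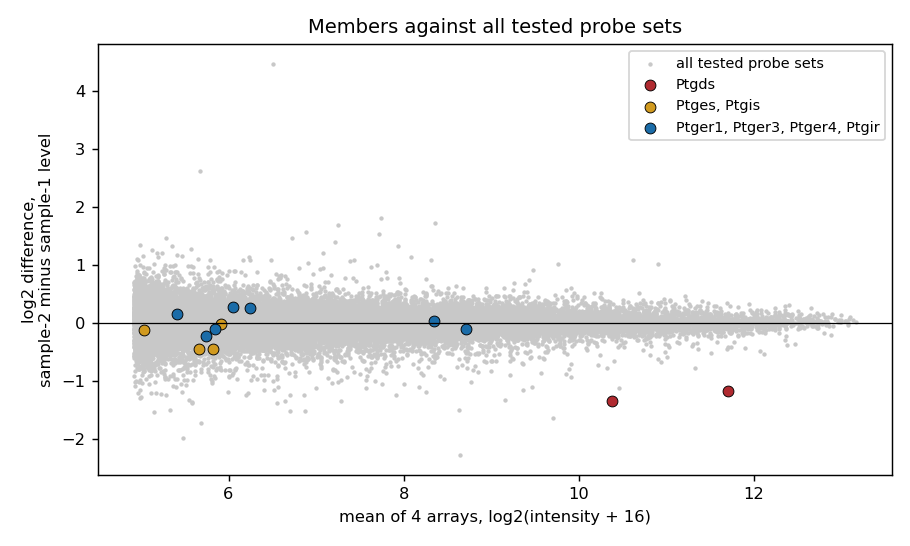
Log2 difference (sample-2 minus sample-1 level) against the mean of the 4 arrays on the log2(intensity + 16) scale, for all 27022 tested probe sets in grey and the 13 tested member probe sets in colour. Both Ptgds probe sets (-1.17 and -1.35) lie below the grey band at their intensity, and the other 11, from -0.45 to 0.27, lie within it.

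Other genes of the prostanoid pathway did not pass. Of 19 listed, 17 had a probe set and 15 were tested by their brightest one. With limma 0 of the 15 passed, against 0.857% of 13543 genes tested this way. An unadjusted p under 0.05 was found for 3, against 10.9% of all tested probe sets. Their median difference was -0.08, with 9 below 0 and 6 above, where 51.2% of all genes lay below 0.

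Ptgdr, the receptor through which the product of Ptgds raises cyclic AMP, measured 82.4 and 102.4 at the sample-1 level and 127.6 and 123.7 at the sample-2 level. These levels did not overlap, with sample-2 higher, as was so for 21.1% of all tested probe sets. The difference was 0.39 ± 0.15, with an interval from 0.06 to 0.72 and an adjusted p of 0.350 (limma). Ptgdr2, the other receptor for that product, measured 2.80 to 5.30 and was not tested.

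Pla2g4a, the phospholipase that frees arachidonic acid, measured 57.9 and 48.2, then 34.3 and 31.9, without overlap. It differed by -0.49 ± 0.20 (limma adjusted p = 0.376). Prxl2b, which makes prostaglandin F, measured 589 and 666.9, then 490.3 and 522 (-0.30 ± 0.10, limma adjusted p = 0.256). Hpgd, which inactivates prostaglandins, measured 92.1 and 73.5, then 56.7 and 63.95 (-0.37 ± 0.17, limma adjusted p = 0.469). Pla2g4a, Prxl2b and Ptgdr were the 3 with an unadjusted p under 0.05. Prxl2b was named after its values were seen, to complete that count.

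**Figure D4:**
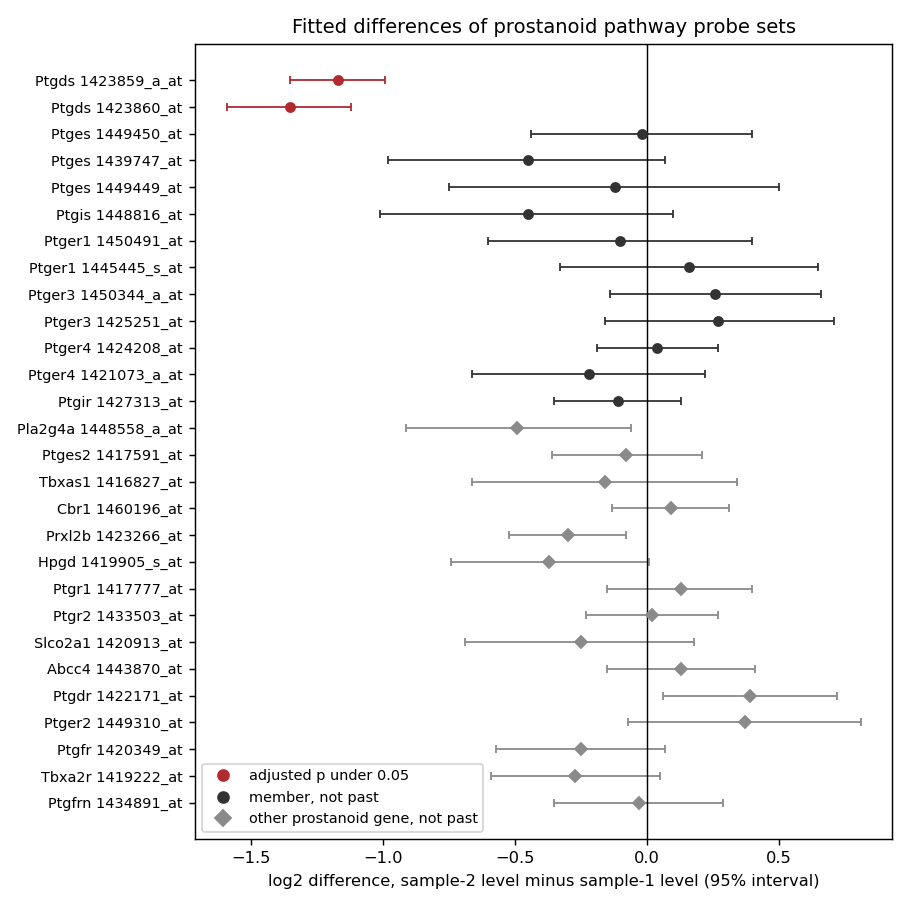
Log2 differences (sample-2 minus sample-1 level) with 95% intervals for the 13 tested member probe sets (circles) and the 15 other prostanoid genes tested (diamonds). The Ptgds intervals end at -0.99 and -1.12, only that of Ptgis (from -1.01) reaches into the first of them, and the intervals of the other member probe sets all include 0.

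Genes of the neighbouring leukotriene branch, which starts from the same fatty acid, gave 0 of 5 tested past with limma and 0 at an unadjusted p under 0.05. Alox5ap, the protein that presents arachidonic acid to the lipoxygenase, measured 104.2 and 117.6 at the sample-1 level and 132.7 and 147.9 at the sample-2 level (0.30 ± 0.14, limma adjusted p = 0.470). Alox5, that lipoxygenase, differed by 0.42 ± 0.28 and Alox12 by 0.40 ± 0.23 (limma adjusted p = 0.653 and 0.579). Leaving out each array moved Alox5 between 0.10 (without sample-1 array 1) and 0.73 (without sample-1 array 2), and Alox12 between 0.26 (without sample-1 array 2) and 0.53 (without sample-1 array 1). The lists of neutrophil and red cell genes were chosen with earlier results of these data known, so their counts are a description only. Listed neutrophil genes, whose cells use this branch, summed to 3246 and 3854 at the sample-1 level and 6523 and 8192 at the sample-2 level. Of these 6 all 6 were higher past the threshold, against 0.295% of all genes, including S100a8 and S100a9, 5 without sample-1 array 1, sample-1 array 2 or sample-2 array 2, and 0 without the filter or the trend. Red cell genes moved the same way, with sums of 183.5 and 202, then 322.1 and 446.2. Of 2 tested, Slc4a1, the anion exchanger of red cells, was higher past the threshold (1.07 ± 0.20, limma adjusted p = 0.0363), but not with sample-1 array 1 or sample-2 array 2 left out, with arrays centred on their medians, or without the filter or the trend. Slc4a1 had 2 tested probe sets, of which 1 passed. The part of either cell type in the Alox5ap values was not tested. Downstream of the receptors, 0 of 20 genes for G proteins, adenylyl cyclases, protein kinase A and phospholipase C passed with limma and 2 had an unadjusted p under 0.05. The largest differences were those of Plcb3, a phospholipase C (0.33 ± 0.10, limma adjusted p = 0.220), Gna11, a G protein (-0.29 ± 0.10, limma adjusted p = 0.262), and Adcy3, an adenylyl cyclase (0.21 ± 0.14, limma adjusted p = 0.641). Plcb3 and Gna11 were the 2 with an unadjusted p under 0.05, against 10.9% of all tested probe sets.

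A minority of the meninges and fibroblast genes passed in the direction of Ptgds. Of 20 listed, 19 were tested, all 19 lay below 0 with a median of -0.45, and 5 were lower past the threshold: Dcn, Lum, Col1a2, Col3a1 and Mgp. The summed intensity of all 20 was 12330 and 11000 for sample-1 against 8428 and 7673 for sample-2. These 5 stood against 0.561% of all genes lower, and the 19 of 19 against 51.2% of all genes below 0. The list was chosen with earlier results of these data known, so these counts are a description and not an independent test. Dcn, a matrix proteoglycan, measured 4666 and 4230, then 3316 and 3232 (-0.44 ± 0.07, limma adjusted p = 0.0174). Col1a2, a collagen, measured 1664 and 1393, then 1060 and 779.7 (-0.73 ± 0.13, limma adjusted p = 0.0313). Lum, a proteoglycan, differed by -0.73 ± 0.11, Mgp, an inhibitor of calcification, by -0.60 ± 0.10, and Col3a1, a collagen, by -0.47 ± 0.09 (limma adjusted p = 0.0172, 0.0212 and 0.0461). Col1a2 and Col3a1 each had 2 tested probe sets, of which 1 passed.

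The markers closest to the meninges were dim or did not pass. Slc6a20a, a transporter, measured 93.8 and 57.8, then 34.9 and 29.5 (-0.90 ± 0.22, limma adjusted p = 0.103). Slc22a6, another transporter, measured 1.12 to 15.6 and was not tested. The count of 5 fell to 1 without sample-1 array 1 and to 2 without sample-2 array 2, was 3 with arrays centred on their medians, 8 with the array number as a block, and 0 without the filter or without the trend. All tested members stayed below 0 under each of these settings. In bulk RNA, fewer cells of a type and less RNA per cell cannot be told apart.

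Ptgds was also set against the mean of this list on each array. Log2 Ptgds (1423859_a_at) minus the mean log2 value of the 19 genes was 4.41 and 4.26 for sample-1, then 3.54 and 3.76 for sample-2, a difference of -0.68. For 1423860_at it was 3.24 and 2.98, then 2.19 and 2.29, a difference of -0.87. This measure was chosen after the values had been seen and is given without a test, and the pseudocount makes differences of the dimmer list genes smaller. The lowest ratios among the tested list genes, picked after their values were seen, were like that of Ptgds. Sample-2 over sample-1 was 0.441 for Ptgds (1423859_a_at), 0.425 for Slc6a20a and 0.405 for Slc22a8. Slc22a8, a further transporter, did not pass (limma adjusted p = 0.325) and was dim, at 15.8 and 8.22 for sample-2. The remaining tested list genes had ratios from 0.578 (Ogn) to 0.923 (Zic1). The 95% intervals of Slc6a20a (from -1.38 to -0.43), Slc22a8 (from -1.29) and Ogn (from -1.21) cover the -1.17 of Ptgds. Those of the other tested list genes lie above it, including the bright Dcn (from -0.59), Col1a2 (from -1.02) and Lum (from -0.97).

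**Figure D5:**
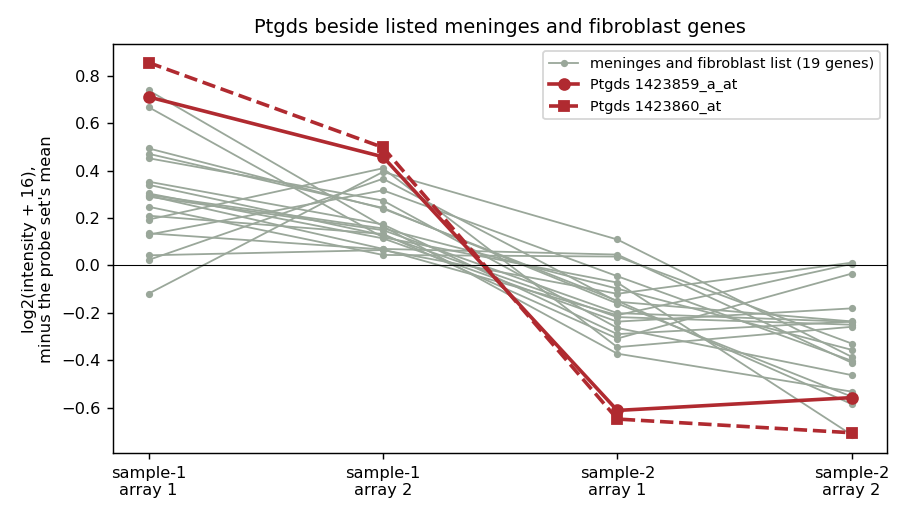
Log2(intensity + 16) on each array minus the mean of the probe set over the 4 arrays, for both Ptgds probe sets (red) and the 19 tested genes of the meninges and fibroblast list (grey); lines join values of 1 probe set. Most grey points and all red points on the sample-2 arrays lie below 0, with red-line differences of -1.17 and -1.35 against a median of -0.45 for the list.

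Other cell types that can hold Ptgds or its receptors were read beside it. Oligodendrocyte markers were dim and did not move alike. Mog, a protein of central myelin, measured 0.799 to 1.58 and Olig2, a factor of that lineage, 0.838 to 6.88. Mobp and Opalin, the 2 tested, measured 18.0 to 22.9 and 7.69 to 28.6, and 0 passed with limma. Olig1 measured 1.56 and 3.23 at the sample-1 level and 15.8 and 12.6 at the sample-2 level. Ermn measured 6.09 and 6.70, then 13.2 and 11.7. Olig1 and Ermn were thus higher at the sample-2 level without overlap, but were not tested. Schwann cell genes all lay below 0 (7 of 7, median -0.40), with 0 past by the brightest probe set in limma and 5 at an unadjusted p under 0.05. They summed to 18690 and 17250 at the sample-1 level and 17330 and 13480 at the sample-2 level. Their median was -0.11 without sample-2 array 2 and -0.21 without sample-1 array 1, each with 6 of 7 below 0, and 3 passed without sample-2 array 1 or with the array number as a block. Satellite glia genes also lay below 0 (6 of 6), but with a median of -0.06, 0 past with limma and 0 at an unadjusted p under 0.05. Without sample-2 array 2 only 3 of the 6 lay below 0, without sample-1 array 2 only 4, and the median ran from -0.14 to -0.03 as each array was left out. Perineurium genes had 5 of 6 below 0, a median of -0.39, 0 past with limma and 2 at an unadjusted p under 0.05. That median was -0.19 without sample-1 array 2 and -0.21 without sample-2 array 1, where 1 gene passed. Nociceptor genes, whose cells carry the receptors, lay above 0 in 5 of 5 and summed to 9421 and 9162, then 11770 and 11490, with Trpv1, a heat-gated channel, and Tac1, the substance P precursor, higher past the threshold, against 0.295% of all genes. That count of 2 was 1 without either sample-1 array, and 0 without the filter or without the trend. Beside the counts of all these lists, 10.9% of all tested probe sets had an unadjusted p under 0.05, and 51.2% of all genes lay below 0. These lists too were chosen with earlier results of these data known. The part of these cell types in the values of Ptgds and of the receptors was not tested.

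Profiles most like that of Ptgds were ranked by the distance between the 4 log2 values of 2 probe sets, each centred on its own mean. The 6 nearest genes, members left out, were Caln1, a neuronal calcium-binding protein (0.04), Pcdh8, a protocadherin (0.10), Gjb6, a connexin (0.15), Shox2, a homeobox factor (0.15), Kcnq1, a potassium channel (0.19), and Col18a1, a basement membrane collagen (0.21). Caln1 measured 133.9 and 107.9 at the sample-1 level and 45.3 and 45.7 at the sample-2 level (-1.15 ± 0.17, limma adjusted p = 0.0115). Like Ptgds, it was highest on sample-1 array 1 and nearly equal on both sample-2 arrays. Pcdh8, read by an _x_at probe set that can match more than 1 transcript, measured 174.3 and 153, then 57.3 and 61.8 (-1.25 ± 0.15, limma adjusted p = 0.00376).

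Gjb6 and Col18a1 also passed (limma adjusted p = 0.0172 for both), while the Shox2 probe set nearest to Ptgds and Kcnq1 did not (limma adjusted p = 0.0592 and 0.0856). Those last genes measured 4.25 to 4.33 and 4.53 to 6.25 at the sample-2 level, under the filter level, so their distance to Ptgds depends on the pseudocount. None of the 6 is on the meninges and fibroblast list, which holds only 20 genes, and which cells hold these 6 was not tested. Likeness over 4 arrays is a description only.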

How the data were processed

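The authors deposited 1 table with an intensity per probe set for each of 4 arrays, on a linear scale. The software behind it is not stated in the labels. With 2% trimmed at each end, the mean was 150 on all arrays, which shows scaling to 1 target before deposit. No detection calls were used, and precision is limited by there being 4 arrays.

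Intensities were taken as log2(intensity + 16), which makes fitted differences of dim probe sets smaller than the true ratio. The 64 controls and probe sets whose mean log2 value lay under the 40th percentile (intensity 14.3) were left out. The rest were fitted with limma 3.58.1 (R 4.3.3; lmFit, eBayes with an intensity trend, no covariate), with 2 residual and 9.71 prior degrees of freedom. In 10 rounds of simulated arrays with 200 of 27022 probe sets changed, this fit found 23.4% of the changes by 1.5-fold, 65.2% of those by 2-fold and 95.5% of those by 4-fold, and 5.04% of its calls were false. The simulated spread was drawn from the fitted model itself. These shares therefore cannot show how the fit behaves on real arrays that depart from that model.

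Gene names came from the platform annotation, checked against a RefSeq table (GRCm38.p6). Every member probe set is reported, and list genes are read by their brightest tested probe set. The rule for named genes took the 3 members of each pathway list that differed most where none passed, the 2 of highest mean and those past the threshold in cell type lists used beside a result, and the 6 genes most like Ptgds. Prxl2b, Ptgdr2, Mog, Olig1, Olig2, Ermn, Slc6a20a, Slc22a6, Slc22a8, Ogn, Kdr and Tek were added after their values were seen. Members and lists were chosen with earlier results of these data known. Alternatives were pseudocounts of 1 and 64, no filter or one at the 60th percentile, quantile normalization, median centring, the array number as a block, no trend, dropping _x_at and _s_at probe sets, and leaving out each array.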

Additional observations from a re-analysis of the deposited data

How the results depend on the processing

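Ptgds stayed lower under all 12 alternatives, with a difference from -1.29 to -1.04. Its adjusted p (limma) passed 0.05 under each but 2: at an unchanged -1.17 it was 0.0760 without the filter and 0.305 without the intensity trend, and the count of member probe sets past the threshold was then 0 in place of 2. Leaving out each array in turn gave a difference from -1.29 to -1.04 and an adjusted p from 1.62e-05 to 0.000157. No other member and no named pathway gene passed under any alternative run. Over all probe sets the count of 168 became 4 without the filter, 1 without the trend and 104 with arrays centred on their medians. It ranged from 67 to 299 when each array was left out (lowest without sample-1 array 2, at 103 when sample-2 array 2 was dropped, highest without sample-2 array 1). With the array number as a replicate block it was 793, but same-numbered arrays deviated together at only r = 0.03 across tested probe sets, so the numbers were not taken to pair the arrays, and no member call changed. The cause of these shifts was not tested. Low signal limits Hpgds and Ptgs2, which have no test in the fit with the filter.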
